A study of Mus musculus with 6 samples.

Results

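The genes described here encode the machinery that carries vesicles with the water channel aquaporin 2 to and from the apical membrane of collecting duct cells. They were chosen by name: 29 genes of SNAREs, their partners, myosins, exocyst, clathrin coat, cortical scaffolds and retromer, and every gene whose platform symbol is Rab followed by a digit. The Rab pattern added 62 genes, of which 51 encode Rab GTPases and 11 are partners or opposite-strand transcripts that carry a Rab name. The 29 named genes were all present among the 12364 genes that had a probe set naming 1 gene. The Rab pattern was applied to those 12364 genes only, so a Rab gene without such a probe set could not enter. Each gene is represented by its brightest such probe set. The cells were mpkCCD clone 11, an immortalised mouse line of 1 clone from the kidney cortical collecting duct, polarized on membrane supports until their electrical resistance had passed 5 kohm per cm2. Cells of the same clone then received 0.1 nM dDAVP or vehicle alone for 5 days, and RNA from 3 samples of each kind, labelled as biological replicates, was hybridised to Affymetrix Mouse Genome 430 2.0 arrays. No genetic alteration is named for either group, and no label says whether the replicates came from separate passages, so p-values measure the spread between these 6 arrays. dDAVP, or desmopressin, is a vasopressin analog that activates the V2 receptor. Values are log2 signals, 1 unit being a doubling, and replicates are listed in the order 1, 2 and 3. Differences are dDAVP minus vehicle, with the standard error (SE) of the fit after ±, from 3 arrays in each group.

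In principal cells vasopressin raises cAMP, and protein kinase A then phosphorylates aquaporin 2, which moves from intracellular vesicles into the apical membrane. Rab GTPases mark the compartments on that route and recruit motors and tethers, the exocyst ties a vesicle to the membrane, and SNAREs on vesicle and target pull the membranes together. Retrieval runs through clathrin, its adaptor AP-2 and dynamin, and a retromer then sorts the cargo back from endosomes. Much of this control acts on proteins already made, by phosphorylation and binding, which arrays of RNA do not measure.

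None of the 91 genes passed an adjusted p below 0.05 in limma (0 of 91, with adjusted p from 0.397 to 0.997), against 36 of all 12364 genes, or 0.291%. On the same arrays Aqp2, the cargo of this route, measured 6.65, 6.72 and 6.72 with vehicle and 10.93, 10.79 and 10.82 with dDAVP, a 17.8-fold rise (limma adjusted p = 1.66e-07). The changes of the 91 genes ran from -0.18 for Rab37 to 0.25 for Rab40b, with a median of 0.014 beside 0.012 over all genes. An unadjusted p below 0.05 was reached by 5 genes with a positive change (Rab29, Slc9a3r1, Rab17, Rab30 and Rab40b), or 5.49%, where 5.51% of all genes did so. For a negative change it was 1 gene (Rab37), or 1.1%, where 2.30% of all genes did. For positive changes the members' share was therefore close to that over all genes. For negative changes it rested on 1 gene, too few to set it apart from that share, and Rab37 had a signal at background level (mean 3.31). That count of 6 rests on the setting and the arrays: it was 28 with arrays scaled to the hybridisation controls, 10 with a trended prior, 1 with scaling to the poly-A controls and 3 without vehicle replicate 1. The share of all genes at that p moved with it, from 7.8% as deposited to 23.7%, 9.29%, 4.34% and 6.34% in the same order, beside 30.8%, 11.0%, 1.1% and 3.3% of the members (6.59% as deposited). In bulk RNA, fewer cells that use a gene and less of its RNA per cell cannot be told apart.

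The intervals of the fit bound how large a change these arrays leave room for. For all 91 genes the 95% interval of the change lay within 1.5-fold either way, as it did for 98.4% of all genes. The bounds of 1.5-fold and 1.25-fold were set after the changes were seen, and 1.5-fold lies just above the farthest interval. The interval lay within 1.25-fold for 79 of the 91, or 86.8%, beside 78.3% of all genes. The 12 whose intervals passed that bound were Snap23, Rab11fip2, Slc9a3r1, Rab30, Rab6b, Rab4b, Rab17, Rab29, Rab38, Rab37, Rab40b and the transcript Rab26os. The widest reach upward was 1.48-fold for Rab6b and the widest reach downward 0.715-fold for Rab38. The median SD between replicates within a group was 0.067 for the 91 genes and 0.083 over all genes. These bounds hold for the values as deposited. Scaling the arrays to the hybridisation controls would add 0.15 to the change of every gene on the array alike, so the bounds are not given for that scaling. Dim probe sets can understate a ratio, and 19 of the 91 lay at or below the median level of all probe sets.

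**Figure D1:**
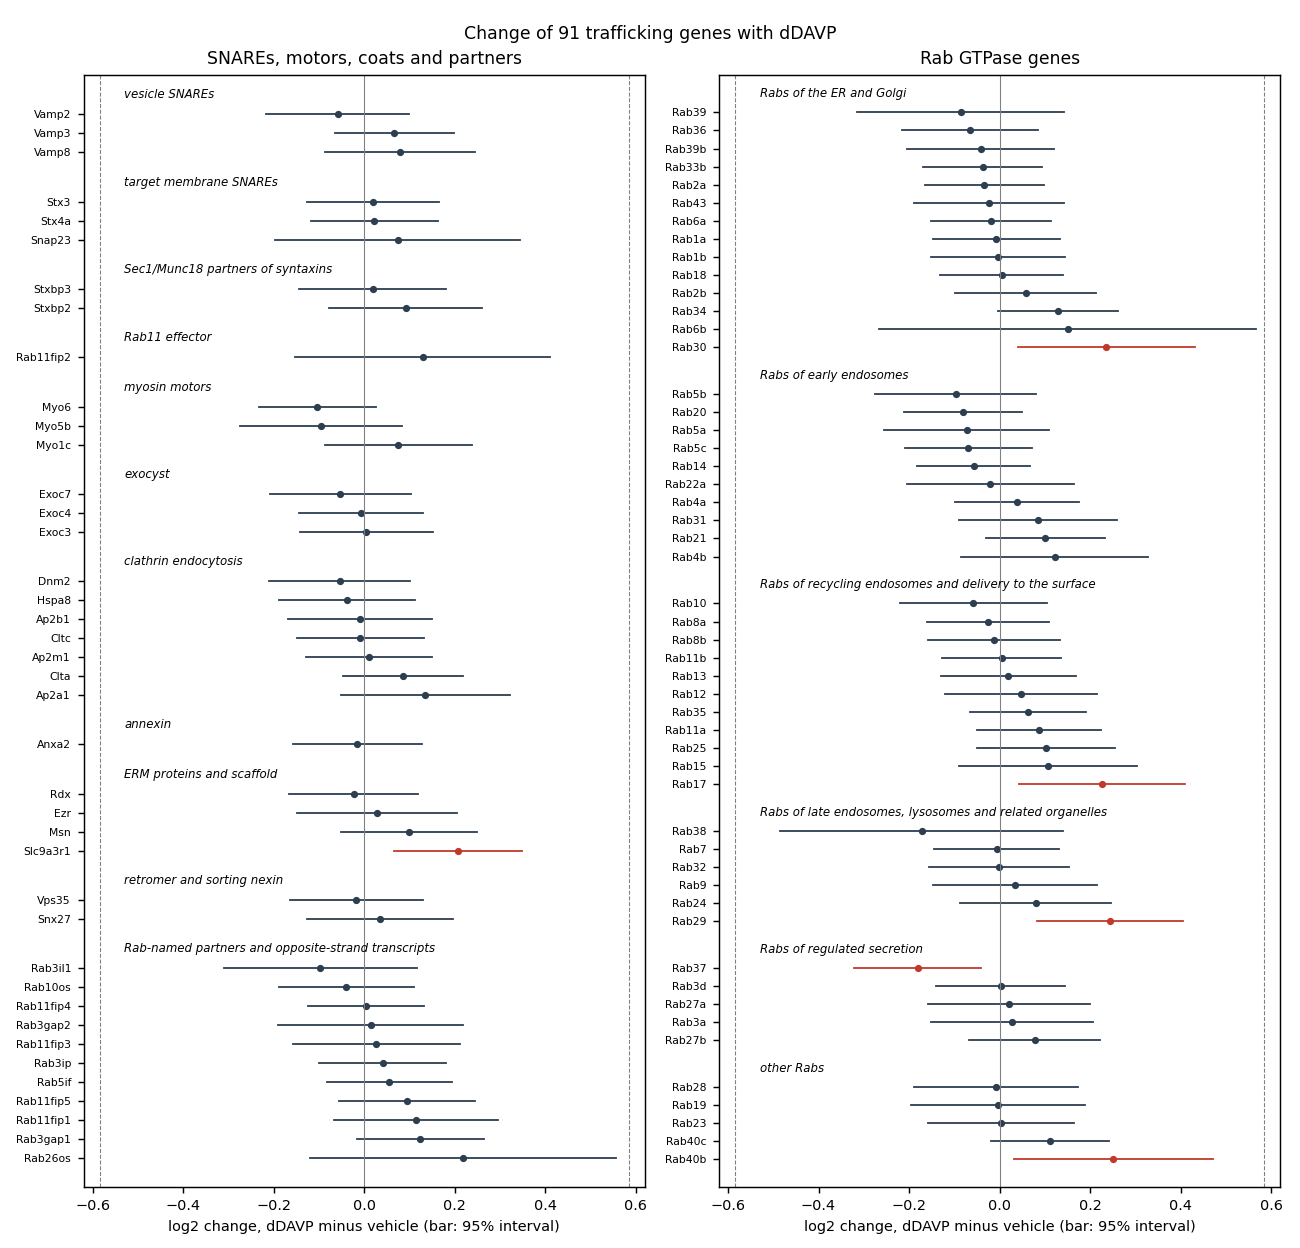
Log2 change with dDAVP for each of the 91 genes (point) with its 95% interval from the moderated fit (bar), grouped by role, dashed lines marking 1.5-fold either way. All intervals lie between the dashed lines, and the 6 genes in red are those with an unadjusted p below 0.05, none of which passed after adjustment (0 of 91); scaling to the hybridisation controls would shift every point by 0.15 to the right.

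**Figure D2:**
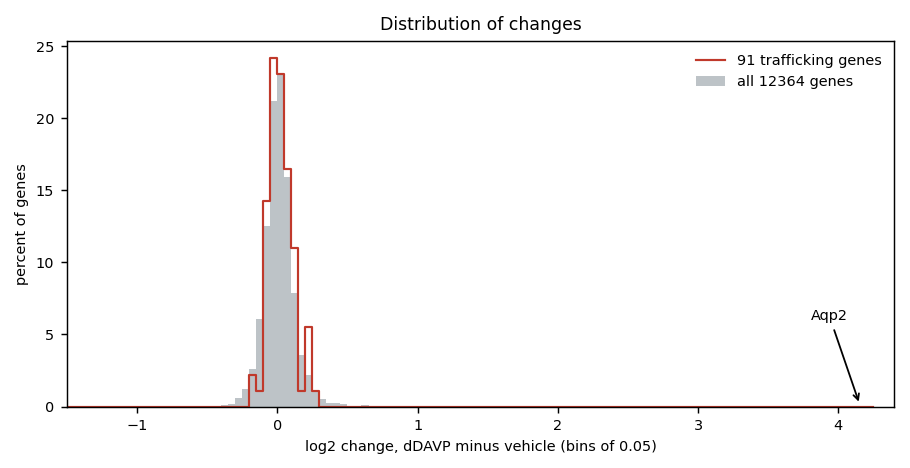
Percent of genes in each bin of log2 change (0.05 wide) for all 12364 genes (grey) and for the 91 trafficking genes (red line). The 91 genes lie between -0.18 and 0.25, around the same centre as all genes, and Aqp2 stands at 4.15.

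The SNAREs and their Sec1/Munc18 partners, which pair vesicle and target membrane for fusion, were 8 genes, and none passed (0 of 8, median 0.044). The vesicle SNARE Vamp2, or synaptobrevin, which is known from aquaporin 2 vesicles, measured 7.70, 7.79 and 7.62 with vehicle and 7.59, 7.63 and 7.71 with dDAVP. Its groups overlapped, and the difference was -0.059 ± 0.068 (SE; 95% interval -0.22 to 0.099). Vamp3, or cellubrevin, a vesicle SNARE of recycling endosomes, measured 9.53, 9.55 and 9.58 with vehicle and 9.58, 9.66 and 9.62 with dDAVP. Every dDAVP value was above the vehicle values, by 0.0019 between the nearest arrays, and the difference was 0.067 ± 0.056 (limma adjusted p = 0.859). Vamp8, or endobrevin, measured 9.83, 9.84 and 10.03 with vehicle and 9.99, 9.97 and 9.97 with dDAVP. Vehicle replicate 3 lay above all dDAVP values, so the groups overlapped at a difference of 0.078 ± 0.072.

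On the target membrane, Snap23, the widely expressed relative of the neuronal SNAP proteins, measured 7.63, 7.32 and 7.54 with vehicle and 7.76, 7.58 and 7.37 with dDAVP. Vehicle replicate 2 was the lowest array and dDAVP replicate 1 the highest, the groups overlapped, and the 95% interval was -0.20 to 0.34. Stx3, a syntaxin of apical membranes, measured 10.03, 9.90 and 10.05 with vehicle and 10.02, 10.02 and 10.001 with dDAVP. Stx4a, a syntaxin of the plasma membrane, measured 7.82, 7.94 and 7.92 with vehicle and 7.93, 7.94 and 7.88 with dDAVP. Both syntaxins overlapped between the groups, with differences of 0.020 ± 0.063 for Stx3 and 0.022 ± 0.060 for Stx4a, each smaller than its standard error. Stxbp2, the Munc18 protein that pairs with apical syntaxins, measured 8.78, 8.95 and 8.82 with vehicle and 8.85, 8.97 and 9.01 with dDAVP. Vehicle replicate 2 lay inside the dDAVP range, and the difference was 0.092 ± 0.073. For Stxbp3, which pairs with syntaxin 4, it was 0.019 ± 0.070.

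The motor complex for recycling vesicles joins Rab11 to an actin motor: Rab11fip2 binds Rab11 on the vesicle and Myo5b, myosin Vb, moves it. None of the 4 genes of effector and motors passed (0 of 4). Rab11fip2 measured 8.18, 7.75 and 8.21 with vehicle and 8.25, 8.16 and 8.12 with dDAVP. The difference of 0.13 ± 0.12 rested on vehicle replicate 2, which was lower than the other 5 arrays by at least 0.37, and it was -0.018 without that array. Myo5b measured 6.94, 7.07 and 6.89 with vehicle and 6.82, 6.98 and 6.80 with dDAVP. Its groups overlapped at a difference of -0.096 ± 0.077 (95% interval -0.27 to 0.084). Myo6, a myosin that moves towards the inward end of actin filaments and serves endocytosis, differed by -0.10 ± 0.056 (limma adjusted p = 0.725), with all dDAVP values below all vehicle values on its brightest probe set. Its other probe sets, both above the median level, had the opposite sign, at 0.12 ± 0.068 and 0.027 ± 0.077 with overlapping groups, so the arrays give no direction for this gene. Myo1c, a motor that binds membrane directly, differed by 0.076 ± 0.070.

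Exocyst subunits tether vesicles before fusion, and none of the 3 listed passed (0 of 3). Exoc3 differed by 0.0044 ± 0.063, Exoc4 by -0.0071 ± 0.059 and Exoc7 by -0.053 ± 0.067. Their groups overlapped, and their intervals together ran from -0.21 to 0.15.

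The genes of clathrin endocytosis, which retrieves aquaporin 2 from the apical membrane, numbered 7, with 3 positive and 4 negative changes and none that passed (0 of 7, median -0.0092). Hspa8, the constitutive heat shock cognate protein that strips the coat from vesicles, measured 13.19, 13.05 and 13.18 with vehicle and 13.10, 13.14 and 13.07 with dDAVP. The dDAVP values lay inside the vehicle range, and the difference was -0.039 ± 0.065. The clathrin heavy chain Cltc differed by -0.0092 ± 0.061 and the light chain Clta by 0.085 ± 0.057. For Clta the lowest dDAVP value, 11.16, was above the highest vehicle value, 11.13, and the limma adjusted p was 0.799. The dimmer Clta probe sets overlapped between groups, at 0.0075 ± 0.077 and 0.051 ± 0.068. The subunits of the cargo adaptor AP-2 differed by 0.13 ± 0.080 (Ap2a1), -0.010 ± 0.069 (Ap2b1) and 0.010 ± 0.060 (Ap2m1), and the membrane-cutting GTPase Dnm2 by -0.055 ± 0.067.

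Under the apical membrane, Slc9a3r1, the PDZ scaffold also called NHERF1 that binds ezrin and many apical transporters, gave the lowest unadjusted p of the 29 genes named individually. It measured 10.78, 10.86 and 10.79 with vehicle and 10.95, 11.02 and 11.08 with dDAVP. Every dDAVP array was above every vehicle array, and the difference was 0.21 ± 0.061 (SE; 1.15-fold, 95% interval of the log2 change 0.065 to 0.35), but it did not pass over all probe sets (limma adjusted p = 0.411). Its remaining probe sets gave 10.48, 10.54 and 10.51 against 10.62, 10.69 and 10.72, and 9.58, 9.69 and 9.72 against 9.77, 9.87 and 9.89. On each of them the groups were also apart, with differences of 0.17 ± 0.059 and 0.18 ± 0.066 (limma adjusted p = 0.512 and 0.544). The 3 probe sets were read from the same 6 RNA samples, so they add no replicate. Whether they share probes was not checked. The probe set at 0.17 is of the Affymetrix type _x_at, whose probes can match related transcripts. Ezr, which encodes ezrin, the linker of that scaffold to actin, measured 11.29, 11.06 and 11.25 with vehicle and 11.28, 11.19 and 11.21 with dDAVP. Vehicle replicate 2 was the lowest array, and the difference was 0.029 ± 0.076. Its relatives moesin (Msn) and radixin (Rdx) differed by 0.099 ± 0.065 and -0.024 ± 0.061. Anxa2, an annexin that binds membrane and actin in a calcium-dependent way, measured 12.01, 12.12 and 12.07 with vehicle and 12.04, 12.10 and 12.003 with dDAVP. Its groups overlapped at a difference of -0.015 ± 0.061.

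In the retromer, which returns cargo from endosomes, the core subunit Vps35 measured 11.32, 11.15 and 11.24 with vehicle and 11.22, 11.22 and 11.21 with dDAVP. The dDAVP values lay inside the vehicle range, at a difference of -0.018 ± 0.063. Snx27, a sorting nexin that delivers PDZ-binding cargo to retromer, differed by 0.035 ± 0.070.

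Among the 51 Rab GTPase genes none passed (0 of 51), 27 changes were positive and 24 negative, and the median was 0.0035. Rabs of recycling endosomes and surface delivery numbered 11, with a median of 0.048. Rab11a, the Rab of the recycling endosome through which aquaporin 2 passes, measured 10.03, 9.996 and 10.08 with vehicle and 10.17, 10.08 and 10.12 with dDAVP. The highest vehicle and lowest dDAVP values both rounded to 10.08, and the difference was 0.087 ± 0.059 (95% interval -0.050 to 0.22). Its close relative Rab11b measured 10.07, 10.09 and 10.10 with vehicle and 10.14, 10.06 and 10.07 with dDAVP. The difference there was 0.0044 ± 0.056, far below its standard error. Rab25, an epithelial member of the Rab11 subfamily, measured 10.52, 10.68 and 10.65 with vehicle and 10.75, 10.70 and 10.71 with dDAVP. The lowest dDAVP value was above the highest vehicle value by 0.014, and the difference was 0.10 ± 0.066 (limma adjusted p = 0.783).

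Rab17, an epithelial Rab of apical recycling and transcytosis, measured 6.46, 6.63 and 6.72 with vehicle and 6.89, 6.81 and 6.78 with dDAVP. The groups did not overlap, and the difference was 0.23 ± 0.079 (1.17-fold, 95% interval of the log2 change 0.042 to 0.41, limma adjusted p = 0.508). A dimmer Rab17 probe set gave 5.73, 5.96 and 5.89 with vehicle and 6.19, 5.96 and 5.83 with dDAVP, which overlapped at 0.13 ± 0.11. Rab8a, which serves apical delivery and cilia, measured 9.27, 9.18 and 9.27 with vehicle and 9.23, 9.22 and 9.19 with dDAVP. Rab10, which carries vesicles to the surface in epithelial and fat cells, measured 11.25, 11.37 and 11.26 with vehicle and 11.30, 11.13 and 11.27 with dDAVP. Both overlapped, with differences of -0.026 ± 0.058 for Rab8a and -0.058 ± 0.070 for Rab10. Rab35, a Rab of fast recycling, measured 8.65, 8.67 and 8.63 with vehicle and 8.71, 8.74 and 8.68 with dDAVP. Its groups were apart by 0.011 between the nearest arrays, at a difference of 0.062 ± 0.055. The other members of this class were Rab8b, Rab12, Rab13 and Rab15, with differences of -0.013, 0.048, 0.019 and 0.11 and overlapping groups.

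Early endosomes receive retrieved channels, and their 10 Rabs had a median change of -0.039, with 4 positive and 6 negative. Rab5a, a Rab that drives fusion of early endosomes, measured 10.39, 10.13 and 10.34 with vehicle and 10.24, 10.20 and 10.20 with dDAVP. Rab5b measured 6.69, 6.58 and 6.66 with vehicle and 6.61, 6.41 and 6.63 with dDAVP, and Rab5c 9.47, 9.55 and 9.50 with vehicle and 9.46, 9.38 and 9.48 with dDAVP. The Rab5 paralogs each had a negative difference, of -0.073 ± 0.079, -0.097 ± 0.077 and -0.069 ± 0.060 in that order, and each overlapped between groups; scaling to the hybridisation controls made all 3 positive. Rab4a, of rapid recycling from early endosomes, measured 7.54, 7.64 and 7.63 with vehicle and 7.63, 7.63 and 7.67 with dDAVP. The groups overlapped at 0.039 ± 0.059. Rab14, which works between Golgi and endosomes, measured 11.42, 11.43 and 11.39 with vehicle and 11.36, 11.35 and 11.37 with dDAVP. All dDAVP values lay below the vehicle values, by 0.028 between the nearest arrays, at a difference of -0.057 ± 0.054 (limma adjusted p = 0.876). Rab21, linked to integrin uptake, measured 9.69, 9.71 and 9.77 with vehicle and 9.83, 9.85 and 9.79 with dDAVP. Its groups were apart by 0.027 at a difference of 0.10 ± 0.057 (limma adjusted p = 0.736). Rab20 had non-overlapping groups too, at -0.081 ± 0.056. Rab4b, Rab22a and Rab31 differed by 0.12, -0.020 and 0.086, with overlap.

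Regulated secretion uses Rab3 and Rab27 on vesicles that wait for a signal. Rab3d, found on secretory granules, measured 7.56, 7.61 and 7.60 with vehicle and 7.52, 7.66 and 7.60 with dDAVP. Its difference was 0.0021 ± 0.062. Rab27a measured 6.81, 6.59 and 6.57 with vehicle and 6.65, 6.69 and 6.68 with dDAVP. Rab27b measured 6.59, 6.56 and 6.62 with vehicle and 6.65, 6.75 and 6.60 with dDAVP. Both Rab27 genes overlapped between groups, at 0.020 ± 0.077 for Rab27a and 0.078 ± 0.063 for Rab27b. Rab3a differed by 0.028 ± 0.077. Rab37, known from granules of mast cells, measured 3.46, 3.35 and 3.39 with vehicle and 3.24, 3.26 and 3.17 with dDAVP. All dDAVP values were below all vehicle values, at a difference of -0.18 ± 0.061 (limma adjusted p = 0.483). Its mean lay below that of the brightest of 10 probe sets for olfactory receptors (3.56). Those receptors are named for the nose and serve here as a rough measure of background signal, though their expression in these cells was not tested. Rab39, Rab39b and Rab3il1 were the only others among the 91 with a mean at or below 3.56.

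Late endosomes and lysosomes receive channels bound for breakdown, and their 6 Rabs had a median of 0.016. Rab7, which directs late endosomes to lysosomes, measured 10.76, 10.88 and 10.85 with vehicle and 10.80, 10.83 and 10.84 with dDAVP. The dDAVP values lay inside the vehicle range, at a difference of -0.0066 ± 0.060. Rab29, a Rab of the trans-Golgi and lysosomes, gave the lowest unadjusted p of all 91 genes. It measured 6.58, 6.76 and 6.73 with vehicle and 6.89, 6.99 and 6.92 with dDAVP. The groups were apart by 0.14 between the nearest arrays, and the difference was 0.24 ± 0.069 (1.18-fold, 95% interval of the log2 change 0.084 to 0.40, limma adjusted p = 0.397). It has 1 probe set, so no other probes bear on it. Rab9, Rab24, Rab32 and Rab38 differed by 0.034, 0.080, -0.0013 and -0.17, with overlapping groups.

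In the ER and Golgi, where new aquaporin 2 is made and glycosylated, 14 Rabs had a median of -0.013. Rab18, of the ER and lipid droplets, measured 9.96, 9.89 and 9.95 with vehicle and 9.99, 9.91 and 9.92 with dDAVP. Its difference was 0.0044 ± 0.059. Rab30, a Golgi Rab, measured 4.87, 4.60 and 4.77 with vehicle and 5.07, 4.97 and 4.90 with dDAVP. Its groups were apart by 0.035 between the nearest arrays, at 0.24 ± 0.084 (limma adjusted p = 0.525). Another Rab30 probe set, dimmer still, gave -0.13 ± 0.10, of the opposite sign. Rab34 differed by 0.13 ± 0.057 with no overlap, but its other probe set, of similar level, overlapped at 0.029 ± 0.058. The other 11 of these genes lay between -0.086 for Rab39 and 0.15 for Rab6b, and all overlapped. Rab40b, a Rab that serves a ubiquitin ligase, had the largest change of the 91. Its only probe set was dim, with a mean of 4.13 beside a median level of 6.72 over all probe sets. Rab40b measured 4.005, 3.86 and 4.14 with vehicle and 4.12, 4.37 and 4.28 with dDAVP. Vehicle replicate 3 lay above dDAVP replicate 1, so the groups overlapped, at 0.25 ± 0.095 (limma adjusted p = 0.550). Its relative Rab40c, with groups apart, differed by 0.11 ± 0.056. Rab19, Rab23 and Rab28 differed by -0.0030, 0.0035 and -0.0079.

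**Figure D3:**
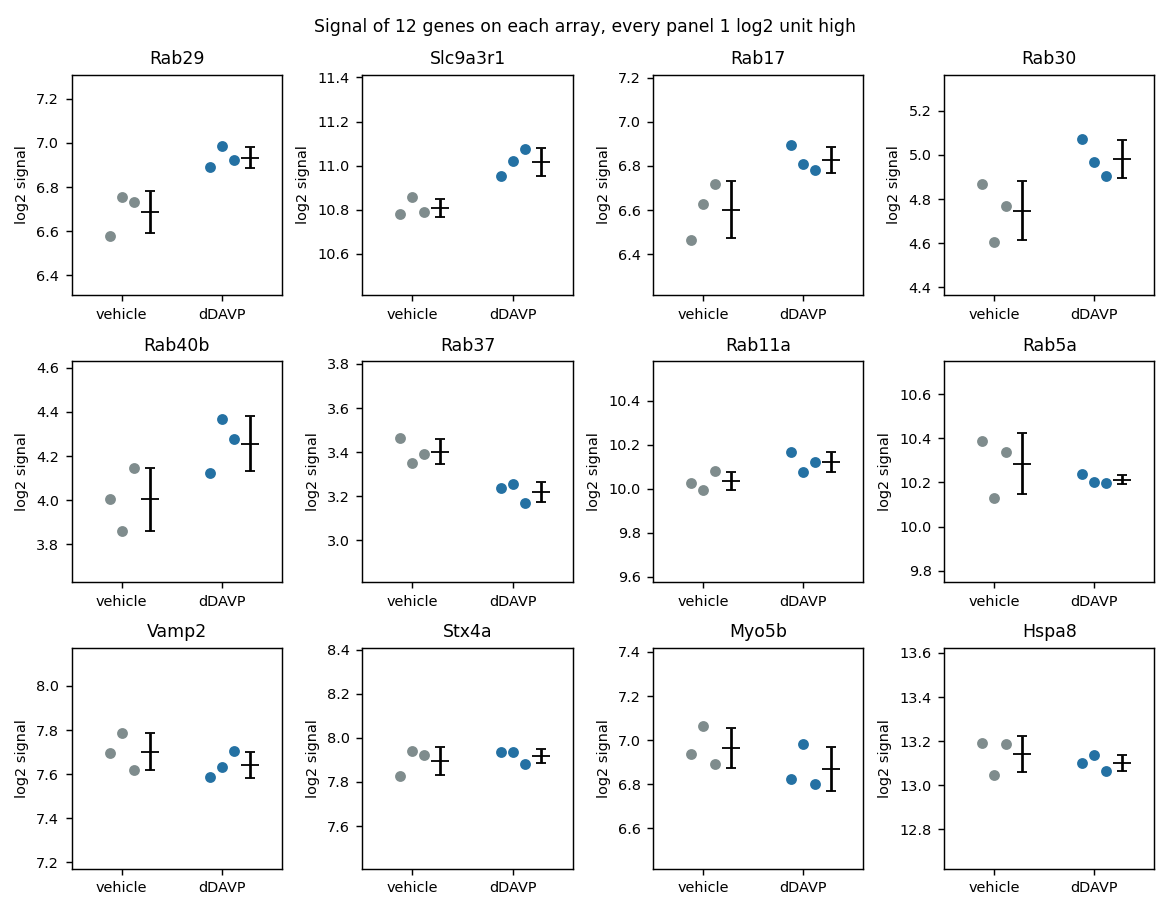
Log2 signal on each of the 3 vehicle (grey) and 3 dDAVP (blue) arrays for 12 genes, with the mean and SD of each group in black beside the points; every panel spans 1 log2 unit and starts at its own level. The 6 genes Rab29 to Rab37 were drawn for an unadjusted p below 0.05 in limma, so their separation follows from that choice. Their means differ by 0.18 to 0.25 either way, and only Rab40b overlaps. The other 6 overlap, Rab11a narrowly. Among the members not drawn, Vamp3, Clta, Rab21, Rab25, Rab34, Rab35, Rab40c and Rab3gap1 have groups apart with dDAVP higher. Myo6, Rab14 and Rab20, also not drawn, have groups apart with dDAVP lower.

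The 11 genes with a Rab name that are not GTPases included 4 more Rab11 effectors, Rab11fip1, Rab11fip3, Rab11fip4 and Rab11fip5, at 0.11, 0.027, 0.0036 and 0.095. Rab3gap1, the catalytic subunit of a complex that acts on Rab3 and Rab18, differed by 0.12 ± 0.061 with no overlap between groups (limma adjusted p = 0.686), and its partner Rab3gap2 by 0.014 ± 0.088. Rab5if and Rab3il1 differed by 0.056 and -0.097. The exchange factor Rab3ip, which activates Rab8, differed by 0.040 ± 0.061. Rab10os and Rab26os are transcripts named for the strand opposite Rab10 and Rab26, and they differed by -0.040 ± 0.064 and 0.22 ± 0.15. None of the 11 passed (0 of 11).

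Counted over the 91 genes, dDAVP values were all above vehicle values for 12, or 13.2%, where 10.1% of all genes behaved so. They were all below for 4 (Myo6, Rab14, Rab20 and Rab37), or 4.4%, where 5.13% of all genes did. Positive changes of any size were seen in 53 of the 91, or 58.2%, beside 55.4% of all genes. The members' shares were thus near the shares over all genes. Of these 16 genes 10 had further probe sets, and for 3 of them (Myo6, Rab14 and Rab30) at least 1 had the opposite sign. Among the 10, only Slc9a3r1 had groups apart on every probe set. For each of the others at least 1 further probe set overlapped. The array farthest from the other 2 of its group was vehicle replicate 2 for 46 of the 91 genes (50.5%) and for 42.2% of all genes, so that array stood apart across the table as well. It was low for Rab11fip2, Snap23, Ezr and Rab5a and high for Vamp2 and Myo5b.

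Of the 91 genes 60 had more than 1 probe set, up to 7, and the 201 probe sets in all held none that passed (0 of 201), where 0.216% of all probe sets did. Among the 110 that were not the brightest of their gene, 5 were higher (4.55%) and 2 lower (1.82%) with dDAVP at an unadjusted p below 0.05, beside 4.85% and 3.13% of all probe sets. Of these 2 were the remaining Slc9a3r1 probe sets. The others were dim probe sets of Rab6b (0.32 ± 0.098), Rab43 (0.32 ± 0.11), Hspa8 (0.29 ± 0.088), Rab27a (-0.32 ± 0.099) and Rab11fip2 (-0.27 ± 0.077). For Rab43, Hspa8, Rab27a and Rab11fip2 the brightest probe set had the opposite sign. All probe sets had the same sign for 27 of the 60 genes. Among genes with at least 3 probe sets this was so for 8 of 26, namely Vamp3, Stxbp2, Clta, Rdx, Slc9a3r1, Rab1a, Rab6a and Rab3d. Taken singly, 61 of the 110 further probe sets had the sign of their gene's brightest probe set. It was 37 of the 62 above the median level of all probe sets and 24 of the 48 at or below it. The same shares over all genes were not computed, so these counts do not set the members apart. The median size of change was 0.052 for the 62 other probe sets above the median level of the array and 0.11 for the 48 at or below it, where the typical SD between replicates was also larger (0.13 against 0.071). For 10 genes, among them Hspa8, Vamp3, Clta and Rab14, the brightest probe set was of the Affymetrix types _s_at or _x_at, whose probes can match related transcripts, so those values may include other genes.

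**Figure D4:**
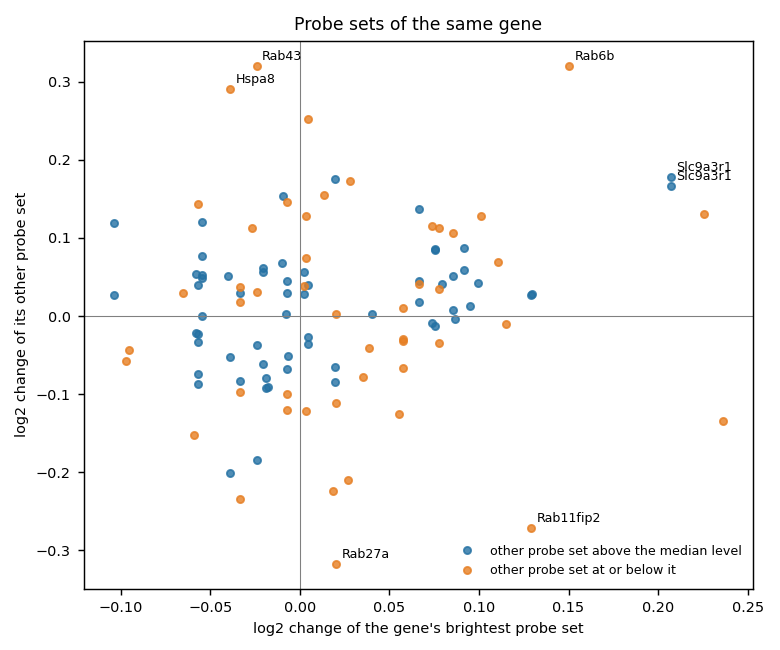
Log2 change of each of the 110 further probe sets against that of the brightest probe set of the same gene, blue where the further probe set lay above the median level of all probe sets and orange where it did not. The 7 labelled points had an unadjusted p below 0.05; both Slc9a3r1 points lie with their brightest probe set, and the dim probe sets of Rab27a, Rab11fip2, Rab43 and Hspa8 have the opposite sign.

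The cAMP response element is the sequence bound by CREB, a transcription factor that protein kinase A activates. Its 8 bases, TGACGTCA, read the same on both strands, and 3 windows that hold it are shown because vasopressin acts through cAMP. The 250 bases before annotated starts were searched in RefSeq sequences of build GRCm38.p6, which held an entry for 75 of the 91 genes. The full element was found for 5 of these 75 (6.67%), for 2.99% of the 10042 measured genes with an entry and for 1.77% of all 27025 genes with one. The 5-base core TGACG, on either strand and so including every full element, was found for 37 of the 75 (49.3%), for 30.2% of the measured genes and for 19.8% of all genes. The 5 genes were Ap2b1, Rab5a, Rab11fip3, Rab25 and Stxbp3. They differed by -0.010, -0.073, 0.027, 0.10 and 0.019 in that order, with a median of 0.019 beside 0.020 for the 70 genes without the element. The windows of Rab25, Stxbp3 and Rab5a lie outside every annotated gene and are printed with the element in capitals on the strand of the gene.
Rab25: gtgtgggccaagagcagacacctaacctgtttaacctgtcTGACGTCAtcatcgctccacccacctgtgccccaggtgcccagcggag
Stxbp3: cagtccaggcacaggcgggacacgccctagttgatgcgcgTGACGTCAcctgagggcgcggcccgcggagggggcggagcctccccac
Rab5a: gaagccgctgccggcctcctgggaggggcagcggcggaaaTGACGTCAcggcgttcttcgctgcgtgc
The Rab25 window is chr3:88548317-88548404 (minus strand), with the element beginning 85 bases before the start. The Stxbp3 window is chr3:108840563-108840650 (minus strand), with the element 108 bases before. For Rab5a it is chr17:53479166-53479233 (plus strand), with the element 28 bases before. A match of letters is a description and not a measured binding site, and the differences for these 3 genes did not pass (0 of 3).

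Around these genes, 178 of 201 further trafficking genes in 6 lists were measured, and none passed either (0 of 178). An unadjusted p below 0.05 was reached by 7 that were higher (3.93%) and 3 that were lower (1.69%), beside 5.51% and 2.30% of all genes. Among 36 other SNAREs and partners it was reached by Use1, a SNARE of the ER (0.16 ± 0.061). Among 30 Rab effectors and regulators it was reached by Rabggtb, the catalytic subunit of the enzyme that attaches lipid to Rabs (0.21 ± 0.063), Tbc1d4, a Rab GAP (-0.22 ± 0.070), and Myrip, a linker of Rab27 to myosin (-0.27 ± 0.11), whose signal lay below the brightest olfactory receptor probe set. Tbc1d4, also called AS160, measured 8.78, 8.70 and 8.80 with vehicle and 8.50, 8.65 and 8.47 with dDAVP, with no overlap (limma adjusted p = 0.461). None of 10 other exocyst genes and partners reached it (0 of 10). Among 38 genes of clathrin adaptors and endocytosis it was reached by the epithelial epsin Epn3 (0.22 ± 0.062), the lipid phosphatase Synj2 (0.26 ± 0.076) and Ap1m2, the epithelial subunit of the adaptor AP-1 (0.14 ± 0.058). Epn3 measured 8.80, 8.89 and 8.78 with vehicle and 8.99, 9.06 and 9.09 with dDAVP, also with no overlap (limma adjusted p = 0.384). Among 28 genes of retromer and recycling it was Ehd4, an endosomal ATPase (0.17 ± 0.056), and among 36 of actin and motors Myo5c (0.15 ± 0.062) and Myo1a (-0.22 ± 0.090).

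The arrays themselves were alike, with correlations across probe sets of 0.996 to 0.998 and medians within 0.043 of each other. Of the 12 principal cell markers 10 were measured, all above the brightest olfactory receptor probe set. Aqp2, Avpr2 and Fxyd4 passed in limma with a rise. Hsd11b2, Gata3 and Elf5 had negative changes (-0.041, -0.075 and -0.0049), and the others positive ones that did not pass. The summed linear signal of the 10 was 3662 to 3750 with vehicle and 5744 to 6117 with dDAVP. It holds the 17.8-fold rise of Aqp2, so it does not show a rise shared by the markers. Of the intercalated cell markers 3 of 7 were measured, with a summed signal of 294 to 302 and 325 to 364, and no marker of a cell type other than the principal cell passed in limma (0 of 13, with 3, Atp6v1b1, Atp6v0a4 and Cd68, at an unadjusted p below 0.05). Those 3 of 13 stand beside 7.8% of all genes at that p. They were higher with dDAVP, by 0.32 ± 0.063, 0.42 ± 0.12 and 0.20 ± 0.079 in that order. The intercalated cell marker Aqp6 went the other way, at -0.082 ± 0.056 with groups apart. The sums with dDAVP against vehicle were 319 to 343 against 335 to 376 for proximal tubule (3 of 7 measured), 7.20 to 7.72 against 7.33 to 8.14 for thick limb and distal tubule (1 of 5), 18.3 to 20.1 against 17.7 to 20.7 for fibroblast and muscle (2 of 7), 7.79 to 8.92 against 8.05 to 9.40 for endothelium (1 of 5) and 659 to 724 against 708 to 788 for leukocytes (3 of 6). The leukocyte sum was carried by Csf1r, at a mean log2 signal of 9.36 beside 5.56 for Cd68 and 3.21 for Ptprc. The proximal tubule sum was carried by Lrp2, at 8.30 beside 4.19 for Slc22a8 and 3.43 for Aqp1. The markers Slc12a1, Cdh5, Ptprc, Col3a1 and Aqp1 were at or below the brightest olfactory receptor probe set. Whether these differences bear on the trafficking genes was not tested.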

How the data were processed

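Total RNA, extracted with Trizol per the labels' protocols, was measured on 1 Affymetrix array per sample, 3 vehicle and 3 dDAVP. The authors deposited log2 signals, 1 per probe set and array (2.15 to 14.1, 0 missing). MAS5, RMA and Affymetrix Expression Console 1.1 are named, without a role, in the submitters' processing notes. Which of them gave these values, any filter and any genome build were not given in the sources used here. Precision is limited by how few arrays there are.

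Of 28287 probe sets, 62 controls were left out. Genes were named from the platform annotation where a probe set named 1 gene (23097 probe sets, 12364 genes), and all 91 members matched a RefSeq gene of GRCm38.p6 by Entrez ID. The 2 groups were fitted with limma 3.58.1 in R 4.3.3 (lmFit, eBayes, 4 residual degrees of freedom), with Benjamini-Hochberg adjustment over 28225 probe sets and a threshold of 0.05. The code was tested on simulated data. SE and 95% intervals come from the moderated variances.

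Members and lists were chosen with earlier results of these data known, and the 1.5-fold and 1.25-fold bounds after the changes were seen. Values per array are given for a fixed set of 30 members and for those, up to 16, at an unadjusted p below 0.05; of each list, up to 3 genes at that p are named. Others, named by their groups' overlap, were chosen after their values were seen. No label says that replicate numbers mark a shared day or batch, so they were not taken as pairs. Same-numbered arrays correlated at 0.196, 0.0463 and -0.0522 in their deviations from group means. Differently numbered arrays of the 2 groups correlated at -0.208 to 0.17, so the values do not settle whether there are pairs. Alternatives were other scalings, a level filter, other priors, a replicate block, leaving out each array, and other probe set rules. Figures were drawn with matplotlib 3.10.9.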

Additional observations from a re-analysis of the deposited data

How the results depend on the processing

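No member passed (0 of 91) as deposited, with quantile normalization, median centring, scaling to the hybridisation or poly-A controls, a trended prior, a robust prior, a replicate block, the mean or any of a gene's probe sets, or without any 1 array (0 to 0); above the median level it was 0 of 72. Neither the 178 list genes nor the 110 further probe sets gave a call in these fits (0 and 0). At an unadjusted p below 0.05 the count was 6, and 3 to 8 without 1 array. The median change of the members, 0.014, moved to 0.16 with the hybridisation controls, where all genes shifted alike, and its distance from the median of all genes stayed at 0.0021; without 1 array the median was 0.0088 to 0.025. The replicate block left that median at 0.014 and the count at 0, and changed no call.

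Of 36 members with values per array, 22 changed sign in at least 1 setting, none of them with a change above 0.13 as deposited and all of them without a call in any setting (lowest adjusted p 0.0589 among all named members and list genes). The cause was not tested, except that the scalings add a constant. With the hybridisation controls the changes became 0.089 (Vamp2), 0.052 (Myo5b), 0.11 (Hspa8), 0.13 (Anxa2), 0.13 (Vps35), 0.075 (Rab5a), 0.051 (Rab5b), 0.079 (Rab5c), 0.14 (Rab7), 0.12 (Rab8a), 0.090 (Rab10) and 0.091 (Rab14). With the poly-A controls they became -0.0043 (Stx3), -0.0015 (Stx4a), -0.022 (Rab3d), -0.020 (Rab11b), -0.020 (Rab18) and -0.0038 (Rab27a). Median centring gave -0.010 (Rab3d), -0.0079 (Rab11b) and -0.0079 (Rab18), and quantile normalization -0.0047 (Rab3d). The mean of probe sets gave -0.038 (Rab11fip2), -0.0012 (Rab4a), 0.043 (Rab8a) and -0.10 (Rab27a). Without 1 array the changes that took either sign ran from -0.013 to 0.044 for Stx4a, -0.059 to 0.024 for Vps35, -0.033 to 0.040 for Rab3d, -0.021 to 0.018 for Rab11b, -0.021 to 0.17 for Snap23, -0.026 to 0.047 for Stx3, -0.018 to 0.21 for Rab11fip2, -0.042 to 0.011 for Anxa2, -0.042 to 0.072 for Ezr, -0.041 to 0.019 for Rab7, -0.021 to 0.019 for Rab18 and -0.024 to 0.097 for Rab27a. Signs turned without dDAVP replicate 1 for Snap23, Rab7, Rab11b and Rab18, without dDAVP replicate 2 for Rab3d, without dDAVP replicate 3 for Anxa2 and Rab3d, without vehicle replicate 1 for Stx4a, Vps35, Rab3d and Rab11b, without vehicle replicate 2 for Snap23, Stx3, Rab11fip2, Anxa2, Ezr, Rab7, Rab18 and Rab27a, without vehicle replicate 3 for Rab7 and Rab27a.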
